A study of Saccharomyces cerevisiae with 21 samples.

Results

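The comparison covers the 5 ribose-seq libraries of rnh203-K46W budding yeast and the 3 libraries of rnh201-null yeast. They are 8 of the 21 samples of the series and were chosen by the genotype in their titles. The other samples are 9 ribose-seq libraries of wild-type (WT) and rnh201-G42S cells and 4 whole-genome sequencing samples, 1 of each genotype. Every strain derives from BY4742, a laboratory strain of mating type alpha, and was grown to stationary phase. rnh203-K46W carries an engineered substitution in RNH203, and rnh201-null lacks a working RNH201. Another label of the rnh203-K46W libraries writes the gene as RNH201, while titles and design text give RNH203, which is used here. The labels do not say that libraries of a genotype came from separate cultures, so p-values measure the spread between libraries only. Inside RNH201, at least 100 bases from its ends as another assembly (RefSeq R64) places them, rnh201-null replicates 1 to 3 had 0 reads, against 1, 116 and 102 in an equal span before the gene. In rnh203-K46W replicates 1 to 5 the gene held 2, 0, 30, 137 and 50 reads. The deep rnh201-null libraries thus lacked reads over the deleted gene, while the shallow one is too thin to tell, and the K46W substitution leaves no such mark.

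Ribonucleotides are the building blocks of RNA, and DNA polymerases also insert them into DNA. RNase H2, a complex of the catalytic subunit Rnh201 and the accessory subunits Rnh202 and Rnh203, cuts at such ribonucleotides in nuclear DNA and starts their removal. Loss of Rnh201 abolishes that activity. The rnh203-K46W allele copies into yeast a substitution of the matching human subunit, RNASEH2C, that occurs in the inflammatory disorder Aicardi-Goutières syndrome. In ribose-seq, alkali cuts DNA at each ribonucleotide, the 3′ end is captured by ligation and sequenced, and each read gives the position and strand of 1 ribonucleotide. Nuclear and mitochondrial positions were treated apart throughout.

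Depth differed widely between libraries. The rnh203-K46W libraries held 7274 to 1851118 nuclear reads, recovered from the deposited values, and 767673 to 27185737 mitochondrial reads. In rnh201-null, replicate 1 held 1435 nuclear and 621 mitochondrial reads, while replicates 2 and 3 held 2139138 and 1975331 nuclear and 112078 and 94515 mitochondrial reads. rnh201-null replicate 1 and rnh203-K46W replicate 2, the shallowest of each genotype, are called the shallow libraries, and results are given with and without them. Together the 8 libraries had a value at 4153455 of the 6492015 nuclear positions in the deposited table and at 138956 of its 141579 mitochondrial positions. The design names several restriction enzyme sets for cutting the DNA without saying which library received which. The mitochondrial profiles of all 17 ribose-seq libraries fell into 2 sets that cross the genotypes. Set A held rnh203-K46W replicates 1, 2 and 4 and rnh201-null replicates 1 and 2, and set B held rnh203-K46W replicates 3 and 5 and rnh201-null replicate 3. These sets were drawn from the data and are not groups of the study, so several results are also given within them.

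The first question was how much ribonucleotide signal the nuclear chromosomes carried relative to mitochondrial DNA. The deposited values are scaled to a fixed total in each compartment, so this ratio was rebuilt from the reads and the DNA depth of each genotype. Nuclear signal relative to mitochondrial signal was far lower in rnh203-K46W than in rnh201-null. On the log2 scale, the nuclear over mitochondrial density per unit of DNA depth was -6.75, -9.14, -7.94, -6.15 and -6.53 in rnh203-K46W replicates 1 to 5. In rnh201-null replicates 1 to 3 it was -1.38, 1.76 and 1.73. The highest rnh203-K46W library lay below the lowest rnh201-null library, itself the shallow one. The means were -7.30 ± 1.23 (SD, n = 5) and 0.70 ± 1.80 (SD, n = 3), a difference of -8.01, with a two-sided exact permutation p = 0.0357, the smallest that 5 against 3 libraries allow, and 0.0536 after Benjamini-Hochberg adjustment over the 6 single values tested. The difference was -8.59 without the shallow libraries, -7.54 within set A and -8.96 within set B. Fewer nuclear ribonucleotides and more mitochondrial ones cannot be told apart in this ratio.

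**Figure D1:**
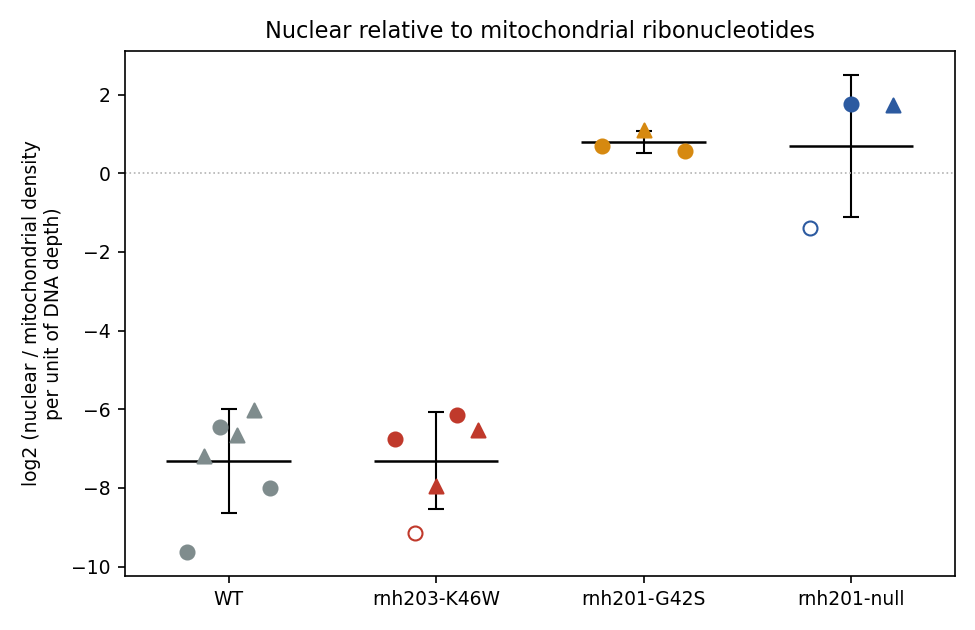
Nuclear over mitochondrial density of ribonucleotides per unit of DNA depth, as log2 (y axis), for each ribose-seq library, by genotype (x axis). Circles are set A, triangles set B, open symbols the shallow libraries, and lines with bars the mean ± SD; the rnh203-K46W libraries lie between -9.14 and -6.15 and the rnh201-null libraries between -1.38 and 1.76.

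DNA depth was close in both genotypes. The median DNA depth was 174 at nuclear and 4164 at mitochondrial positions of rnh203-K46W, and 170 and 4288 in rnh201-null, so mitochondrial over nuclear depth was 23.9 and 25.2. Counting recovered reads alone gave a difference of -8.26. Counting each detected position once gave -3.86, with an exact permutation p = 0.107. On the first scale the 6 WT libraries ran from -9.62 to -6.01, a range that holds all 5 rnh203-K46W libraries, and the 3 rnh201-G42S libraries from 0.57 to 1.11.

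Reads of rnh203-K46W nuclear DNA fell on fewer distinct positions than equal numbers of rnh201-null reads, and in mitochondrial DNA the order was the opposite. Distinct positions were computed at one read number per compartment so that depth does not enter. In 1000 nuclear reads, rnh203-K46W replicates 1 to 5 gave 965.4, 937.0, 994.0, 992.9 and 986.7 distinct positions, and the rnh201-null replicates gave 1000, 999.7 and 999.6. Nearly every rnh201-null read thus had a position of its own, and all 5 rnh203-K46W libraries lay lower. The means were 975.2 ± 24.2 (SD, n = 5) and 999.8 ± 0.20 (SD, n = 3), with an exact permutation p = 0.0357 (adjusted 0.0536). The difference was -24.6 positions with all libraries and -14.9 without the shallow ones. Within set A rnh203-K46W gave 965.4, 937.0 and 992.9 against 1000 and 999.7. Within set B the genotypes were closer, at 994.0 and 986.7 against 999.6. When the 10 positions with most reads in each library were set aside, rnh203-K46W libraries gave 976.0 to 997.0 positions and rnh201-null libraries 999.6 to 1000.

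In 500 mitochondrial reads, rnh203-K46W replicates gave a mean of 491.0 ± 3.74 distinct positions (SD, n = 5) and rnh201-null replicates 463.5 ± 5.80 (SD, n = 3). The lowest rnh203-K46W library, at 485.1, lay above the highest rnh201-null library, at 470.2. The exact permutation p was 0.0357 (adjusted 0.0536), and the difference was 27.5 with all libraries, 25.7 without the shallow ones, 25.1 within set A and 32.1 within set B. With the 10 positions of most reads in each library set aside, the groups lay closer. rnh203-K46W libraries then gave 485.9 to 494.1 positions and rnh201-null replicates 1 to 3 gave 478.7, 473.9 and 464.0. Both compartments thus separated the genotypes without overlap, in opposite directions. The labels do not say whether duplicate reads from amplification were removed, and the part of duplicates in the reads per position was not tested.

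**Figure D2:**
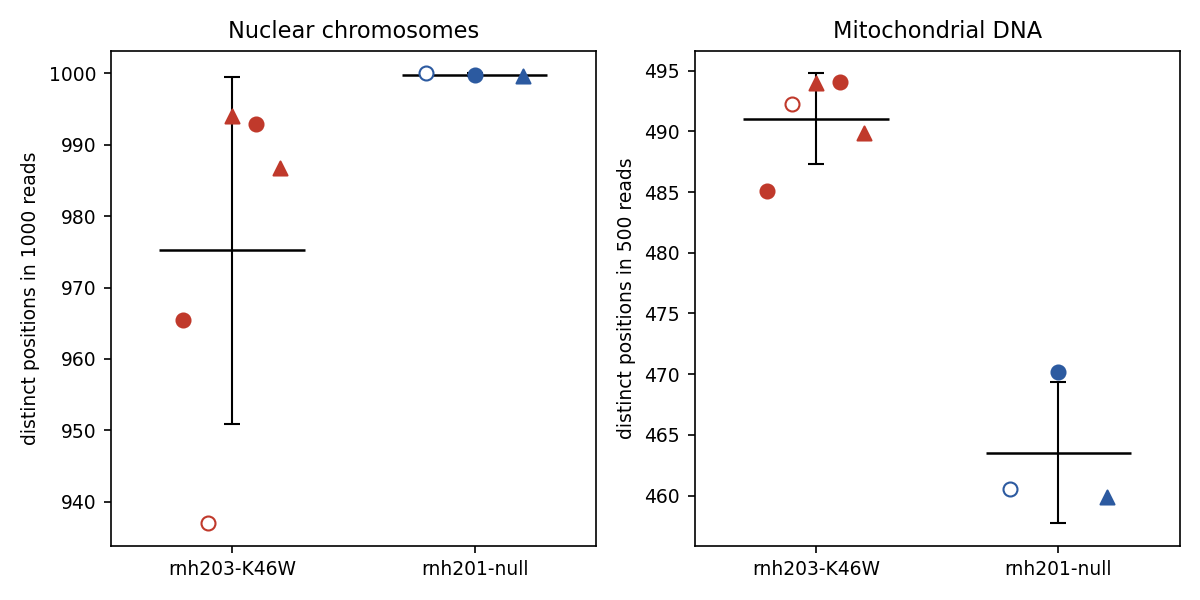
Expected number of distinct positions in 1000 nuclear reads (left) and in 500 mitochondrial reads (right) for each library, with the mean ± SD; symbols mark set A (circles), set B (triangles) and shallow libraries (open). The y axes do not start at 0; rnh203-K46W lies below rnh201-null on the left (975.2 against 999.8) and above it on the right (491.0 against 463.5).

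The excess of reads per nuclear position in rnh203-K46W lay partly at a small number of positions with very many reads. The 100 nuclear positions with most reads held 7.25, 11.3, 2.62, 2.72 and 4.14% of the nuclear reads in rnh203-K46W replicates 1 to 5. In rnh201-null replicates 2 and 3 they held 0.132 and 0.226%. In replicate 1 of rnh201-null every position held 1 read, so its 6.97% counts 100 single reads and has no such meaning. The most reads at 1 nuclear position were 2987 in rnh203-K46W replicate 4, and 133 and 115 in rnh201-null replicates 2 and 3, which had more nuclear reads.

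Whether these positions recurred was read in libraries not used to choose them. The positions came from rnh203-K46W replicate 4, the deepest of its genotype, in which each of the 100 held at least 251 reads; this choice was made after values had been seen. They held 2.15, 8.56, 0.128 and 0.646% of the nuclear reads of rnh203-K46W replicates 1, 2, 3 and 5. In rnh201-null replicates 2 and 3 they held 0.0116 and 0.00289%, and replicate 1 had none of its 1435 reads there, which allows a share of up to 0.209%. Every other rnh203-K46W library was thus higher than every rnh201-null library in the measured share, although the 0.128% of replicate 3 is under the limit that the shallow rnh201-null library allows. The exact permutation p was 0.0571, the smallest that 4 against 3 libraries allow. Replicate 2 carried much of the mean: the difference was 2.87 percentage points with all libraries and 0.97 without the shallow ones. The same order of the groups held when the 100 positions were taken from any other rnh203-K46W library. Detection differed by set. Of the 100 positions of replicate 4, set A replicates 1 and 2 had 84 and 82. Set B replicates 3 and 5 had 31 and 53 of them. Of the 100 positions of replicate 3, replicate 5 of its set had 99, and replicates 1, 2 and 4 had 30, 11 and 57. They held 2.56% of the reads of replicate 5 and 0.869, 3.05 and 0.424% in replicates 1, 2 and 4. Of all nuclear positions of replicate 3, replicate 5 had 12.6%, and replicates 1, 2 and 4 had 0.880, 0.159 and 12.3%. These libraries differ in depth, and the part of the set was not tested.

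The share has the nuclear reads of the library as its denominator, and that denominator differs between the genotypes as described above. Per 1000000 mitochondrial reads, the 100 positions of rnh203-K46W replicate 4 had 27.7 to 1007 reads in the 4 other rnh203-K46W libraries. They had 0, 2213 and 603.1 in rnh201-null replicates 1 to 3. The groups thus overlapped, and the difference turned to -397 (exact permutation p = 0.686). In WT replicates 1 to 6 the same positions held 0.569, 0, 0.0799, 0.0141, 0.0495 and 0.163% of the nuclear reads, from at most 63 reads a library, and the 0 allows up to 0.342%. WT replicates 1 and 6 were thus above rnh203-K46W replicate 3. Positions chosen the other way gave smaller shares. The 100 leading positions of rnh201-null replicate 2 held 0.0229% of the nuclear reads of replicate 3. They held 0.0191, 0.000802, 0.0515 and 0.000873% in rnh203-K46W replicates 1, 3, 4 and 5, and none of the 7274 reads of replicate 2, which allows up to 0.0412%. The 100 leading positions of rnh201-null replicate 3 held 0.0182% of the nuclear reads of rnh201-null replicate 2. They held 0.00160, 0.00502 and 0.00105% in rnh203-K46W replicates 3, 4 and 5. No read of rnh203-K46W replicates 1 and 2 fell there, which allows up to 0.00382 and 0.0412%.

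**Figure D3:**
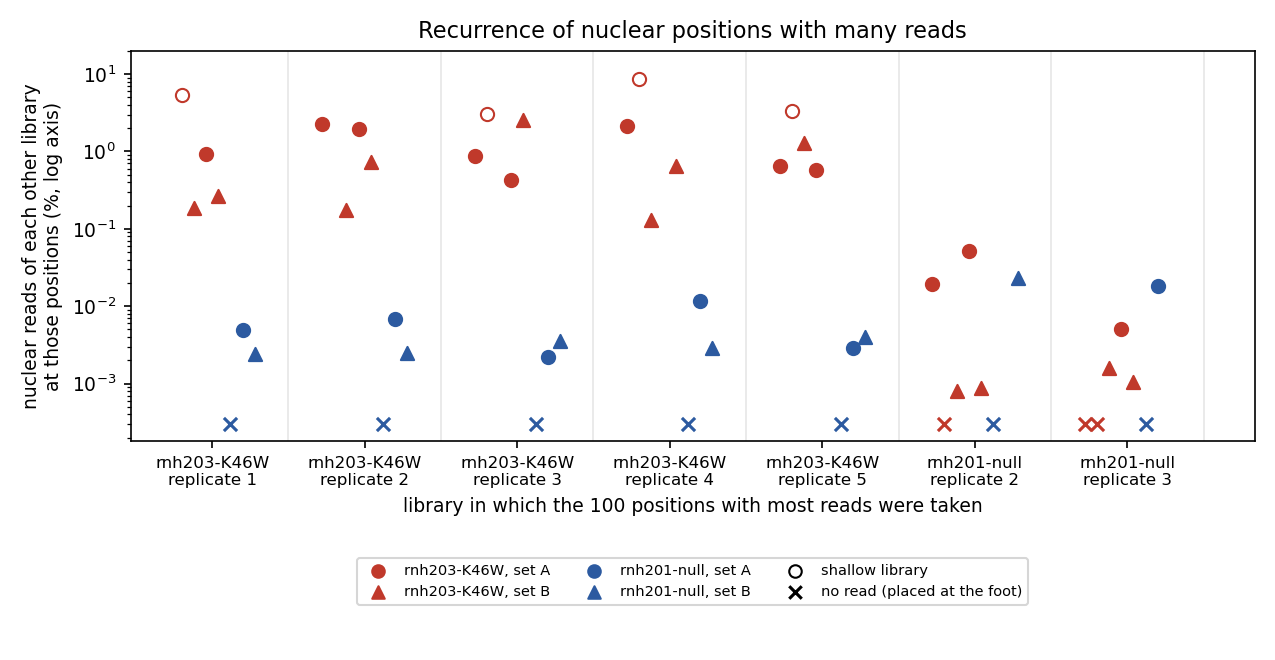
Percentage of each library's nuclear reads (y axis, log scale) at the 100 positions with most reads in another library (x axis). Red is rnh203-K46W, blue rnh201-null, circles set A, triangles set B, open symbols the shallow libraries and crosses libraries with no read, placed at the foot; for positions of rnh203-K46W replicate 4 the red symbols lie from 0.128 to 8.56% and the blue ones at or below 0.0116%.

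Of 394 nuclear positions with at least 100 reads in rnh203-K46W replicate 4, 331 (84.0%) were found in 1 or more of the other rnh203-K46W libraries. The share was 41.7% of the 10962 positions with at least 10 reads and 7.29% of all 1206338 nuclear positions of replicate 4. In all 4 other libraries, 46 of the 394, 74 of the 10962 and 78 of the 1206338 were found. Of the same 394, 174 (44.2%) had no read in either deep rnh201-null library, against 61.5% of the 10962 positions with at least 10 reads and 79.0% of all 1206338 nuclear positions of rnh203-K46W replicate 4. Gene names below come from the same R64 annotation and are given only at least 100 bases inside a gene there, since offsets between the assemblies were not measured. Coordinates are those of sacCer2.

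The nuclear position with the highest mean value in rnh203-K46W was 911883 of chromosome XIII, on the plus strand, inside ADH6, which encodes an alcohol dehydrogenase. Per 1000000 nuclear reads it held 4258, 23646, 180.5, 1614 and 1394 in rnh203-K46W replicates 1 to 5, and 0, 3.27 and 0 in the rnh201-null replicates. The reads themselves were 172, 45, 2987 and 798 in rnh203-K46W replicates 2 to 5 and 0, 7 and 0 in rnh201-null. Per nuclear read, all 5 rnh203-K46W libraries were above all 3 rnh201-null libraries. The position was picked for its high mean in rnh203-K46W, so this order is part of that choice and is no test. Per 1000000 mitochondrial reads it held 199.7, 224.1, 3.90, 109.9 and 68.6 in rnh203-K46W and 0, 62.5 and 0 in rnh201-null. There rnh201-null replicate 2 lay above rnh203-K46W replicate 3. Replicate 3 of rnh201-null, with 0 of 1975331 nuclear reads, allows a share of up to 0.000152%. Replicate 1, with 0 of 1435, allows up to 0.209%, more than rnh203-K46W replicates 3, 4 and 5 held. The 1-kb window that holds this position, 911001 to 912000 of chromosome XIII, was the single window called among 11554 windows of that width. Its log2 difference was 5.52 ± 0.99 (SE, limma, adjusted p = 0.000303). The window includes the reads of the position, so its call is not a separate observation. No 1-kb window was called without the shallow libraries, of 11574 tested.

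A second position, 726182 on the minus strand of chromosome X, inside the uncharacterised YJR154W, held 123, 26, 10, 2636 and 71 reads in rnh203-K46W and 0, 3 and 0 in rnh201-null. Another, 204007 on the plus strand of chromosome XII, held 201, 27, 2, 794 and 1 reads against 0, 4 and 3. Reads there were concentrated in the 3 set A libraries of rnh203-K46W. The remaining pair of the 5 leading positions were each carried by 1 library. Position 559452 on the minus strand of chromosome XVI, inside PDH1, a putative mitochondrial dehydratase gene, held 5, 26, 1, 220 and 0 reads in rnh203-K46W and none in rnh201-null. Its high mean came from the shallow replicate 2, where the 26 reads give a value of 53396. Position 106233 on the minus strand of chromosome III, inside STP22, a gene of the ESCRT sorting machinery, held 374, 2, 3, 14 and 1 reads in rnh203-K46W and 0, 11 and 0 in rnh201-null. There replicate 1 alone was high.

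Leading nuclear positions of rnh201-null could not be ranked with the shallow library included, because 1 read in replicate 1 is worth more than the highest position in the deep libraries. Without the shallow libraries the highest was 838921 on the minus strand of chromosome XII, inside ILV5, a gene of branched-chain amino acid synthesis. It held 41 and 75 reads in rnh201-null replicates 2 and 3 and none in any rnh203-K46W library. The next, 29191 on the plus strand of chromosome XIII, lies inside NDI1, which encodes the internal NADH dehydrogenase of mitochondria. It held 19 and 76 reads in those rnh201-null libraries and again none in rnh203-K46W. At the read numbers of rnh203-K46W replicate 4, 0 reads allow a share of up to 0.000162%, against the 19.2 and 38.0 reads per 1000000 measured at the ILV5 position. In rnh203-K46W replicates 1 and 2, 0 reads allow up to 0.00382 and 0.0412%, no lower than those measured shares. Both positions were picked for their high mean in rnh201-null, so the order of the groups there is part of that choice and is no test.

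Density along the nuclear chromosomes was compared in 10-kb windows, both strands together, after scaling each library to a mean of 1. limma called 0 of 1192 windows at an adjusted p of 0.05 (0% of those tested), and 48 had an unadjusted p under that value, 15 of them higher in rnh203-K46W. All rnh203-K46W libraries lay above all rnh201-null libraries in 33 windows (2.77% of those tested) and below them in 48 (4.03%). Leaving out the shallow libraries, these counts were 79 (6.63%) and 134 (11.3%), again with no window called. Simulated libraries of these depths were drawn with counting error alone around the deep rnh201-null profile of each set. With all of them, limma called 5.025% of windows changed 2-fold and 68.72% of those changed 4-fold. Without the shallow ones it called 82.41 and 98.46%. The 0 calls with all libraries thus say little about 2-fold changes. Among the measured windows without overlap, more had rnh203-K46W lower than higher, and none passed the test across windows. The share that random labels would give was not computed. This lean was not stable among windows with an unadjusted limma p under 0.05. Without rnh201-null replicate 2, 114 of 171 such windows were higher in rnh203-K46W, and without replicate 3, 105 of 168.

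The windows with the smallest p in each direction are given by level, none past the threshold. Bases 170001 to 180000 of chromosome I had 0.55 to 0.74 of the mean in rnh203-K46W and 1.30 to 3.49 in rnh201-null, a log2 difference of -1.40 ± 0.31 (SE, limma adjusted p = 0.58). Bases 90001 to 100000 of chromosome V had 0.68 to 0.89 against 1.41 to 1.69. On chromosome XII, bases 390001 to 400000 had 1.22 to 1.88 in rnh203-K46W and 0.77 to 1.05 in rnh201-null, a log2 difference of 0.82 ± 0.21 (SE, limma adjusted p = 0.58). Both groups kept apart in these 3 windows. The other 7 windows named by the same rule differed by 0.52 to 0.88 in size on the log2 scale. With libraries weighted by their own spread, limma called 4 windows, all lower in rnh203-K46W. They were the windows above on chromosomes I (adjusted p = 0.00575) and V (0.0315), bases 70001 to 80000 of chromosome III (0.0315) and bases 680001 to 690000 of chromosome X (0.0304).

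Strand shares overlapped between the genotypes. The plus strand held 49.6 to 50.4% of the summed nuclear value in rnh203-K46W and 47.0, 49.8 and 50.1% in rnh201-null (exact permutation p = 0.25, adjusted 0.3). The lowest of these values is that of the shallow library. The plus to minus ratio in 10-kb windows gave 0 calls among 1192 windows with limma (0%) and 52 windows with an unadjusted p under 0.05. In the simulated libraries this fit called 0% of windows changed 2-fold and 18.97% of those changed 4-fold, so 0 calls say little about such changes. The groups did not overlap in 38 windows with rnh203-K46W higher (3.19%) and in 45 with it lower (3.78%), and without the shallow libraries in 117 (9.82%) and 122 (10.2%). The 10 windows with the smallest p had log2 differences between 1.33 and 2.78 in size, and between 0.77 and 1.21 without the shallow libraries. One of them, bases 200001 to 210000 of chromosome XII, holds the position 204007 described above, with a log2 difference of 2.73 ± 0.97 (SE, limma adjusted p = 0.54).

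The density of whole chromosomes, relative to the nuclear mean, did not separate the groups on any of the 16 chromosomes (0 with rnh203-K46W all above and 0 all below). The smallest exact permutation p, 0.0714 before and 0.429 after adjustment over the 16 chromosomes, was that of chromosomes IV and IX. On chromosome IV rnh203-K46W replicates 1 to 5 had 1.01, 1.17, 1.09, 1.13 and 1.12 and the rnh201-null libraries 0.930, 1.04 and 0.966. This difference between the means, 0.124, was 0.087 in recovered reads and 0.077 with positions counted once. On chromosome IX rnh203-K46W had 0.995, 0.850, 0.838, 0.817 and 0.786 against 1.02, 0.960 and 1.02, a difference of -0.142, or -0.085 in recovered reads. On chromosome I rnh203-K46W replicates 2 to 5 had 0.60, 0.61, 0.60 and 0.62 and the rnh201-null libraries 0.82, 0.83 and 0.91. Replicate 1 of rnh203-K46W stood apart at 0.96. On chromosome VI rnh203-K46W replicates 1 to 5 were at 1.033, 0.81, 0.67, 0.71 and 0.65, compared with 1.38, 0.94 and 0.95 in rnh201-null. On chromosome III replicate 1 of rnh203-K46W was highest, at 1.39, and replicates 2 to 5, at 0.94, 0.77, 0.73 and 0.72, were below every rnh201-null library. Exact permutation p-values over the 16 chromosomes ran up to 0.93. Without the shallow libraries, chromosomes V and VIII were lower in all rnh203-K46W libraries.

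DNA depth, by which the deposited values are divided, differed between the genotypes on the same chromosomes. Relative to the nuclear median, it was 1.36 in rnh203-K46W and 1.14 in rnh201-null on chromosome I, 1.32 and 1.13 on chromosome VI, and 1.23 and 1.10 on chromosome III. Each genotype has 1 DNA sample, so this depth has no replicate. With recovered reads alone, the chromosome I difference between the group means shrank from -0.18 to -0.05, that of chromosome VI from -0.31 to -0.19 and that of chromosome III from -0.17 to -0.07.

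**Figure D4:**
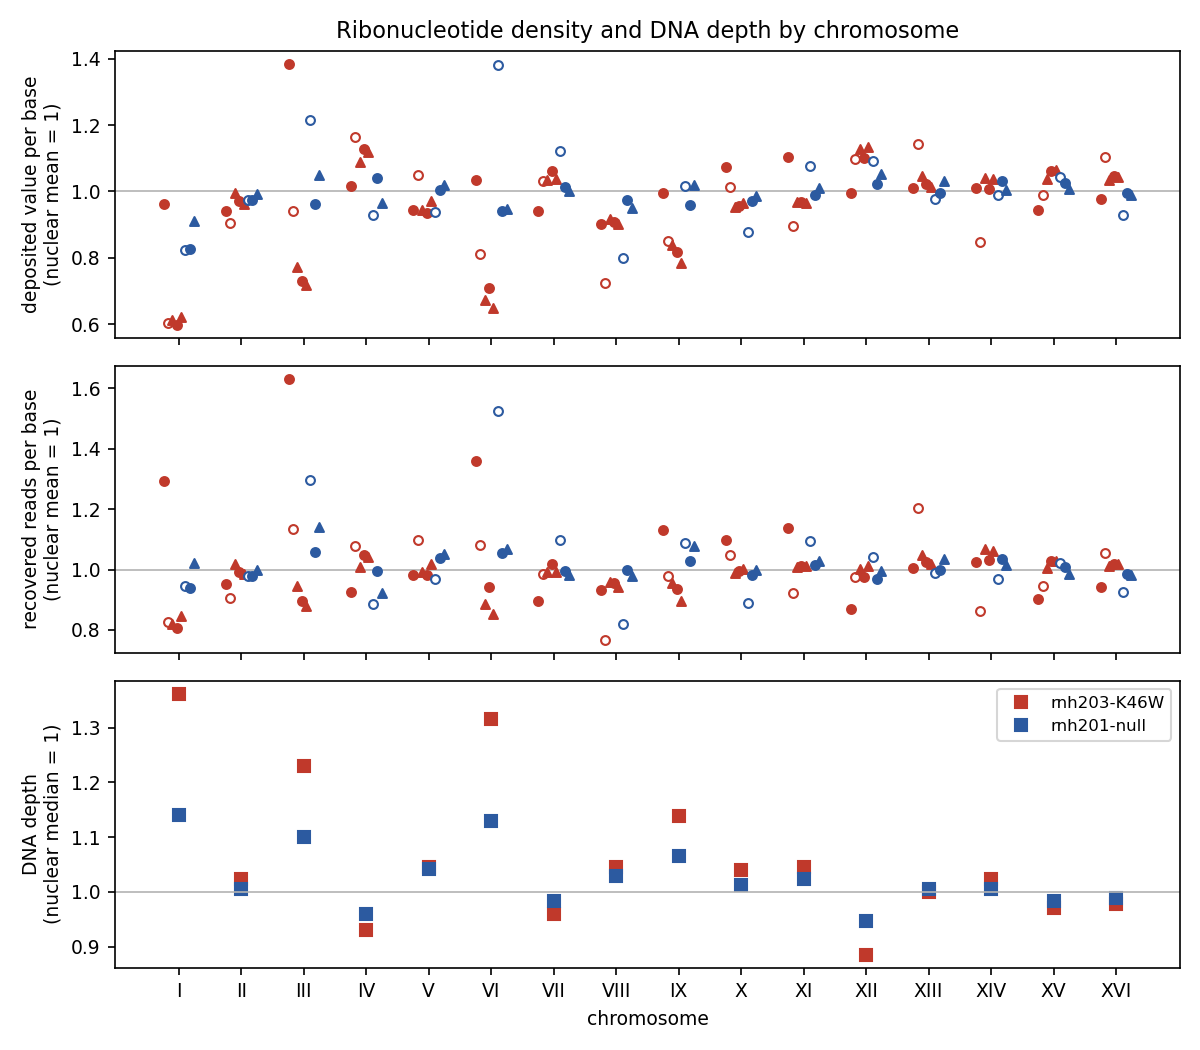
Deposited value per base (top), recovered reads per base (middle) and DNA depth (bottom) of each of the 16 nuclear chromosomes, relative to the nuclear mean or median set to 1. Red is rnh203-K46W, blue rnh201-null, circles set A, triangles set B and open symbols the shallow libraries; on chromosome I the rnh203-K46W DNA depth is 1.36 against 1.14, and the gap between genotypes is smaller in reads (-0.05) than in values (-0.18).

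The 10 kb next to the chromosome ends were compared in the same way. Their density over that of the rest of the nuclear genome was 0.42, 0.42, 0.35, 0.29 and 0.34 in rnh203-K46W and 0.48, 0.43 and 0.50 in rnh201-null. All rnh203-K46W libraries were lower, though the nearest libraries were at 0.4248 and 0.4279, with an exact permutation p = 0.0357 (adjusted 0.0536). Within set A rnh203-K46W had 0.42, 0.42 and 0.29 against 0.48 and 0.43, and within set B 0.35 and 0.34 against 0.50. DNA depth within 10 kb of the ends was 1.33 times the nuclear median in rnh203-K46W and 1.12 times in rnh201-null. With recovered reads the difference fell from -0.107 to -0.044, with an exact permutation p = 0.39. At 20 kb from the ends it turned to 0.030 (exact permutation p = 0.93). The shallow rnh203-K46W replicate 2 was highest there, at 0.89, and without it the difference was -0.045. Without both shallow libraries it was -0.076 at 20 kb and -0.115 at 10 kb. Position 911883 of chromosome XIII, with 172 reads in that library, lies 12.5 kb from the nearest end, and its part in the 20-kb value was not tested.

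Mitochondrial profiles were closer within a library set than between sets. Over 429 windows of 200 bp, Spearman's rho averaged 0.64 (range 0.40 to 0.91) over the 8 pairs of a rnh203-K46W and a rnh201-null library of the same set. It averaged 0.74 over the 5 pairs that shared both set and genotype. It averaged 0.29 (0.18 to 0.44) over the 8 pairs that shared a genotype but not a set. rnh203-K46W replicate 4 matched rnh201-null replicate 2 at 0.91, more closely than it matched any library of its own genotype. The sets were drawn from these profiles in all 17 libraries, so the split between sets is a description. Without the shallow libraries the mean was 0.81 over 4 pairs of one set and different genotypes, 0.80 over 2 pairs that shared both, and 0.35 over 5 pairs that shared the genotype alone. Over 1204 nuclear windows of 10 kb the means for set alone and genotype alone were 0.34 and 0.38 with all libraries, and 0.53 and 0.48 without the shallow ones. Windows of one genome are not independent, and within set A the mitochondrial pairs with rnh201-null replicate 1 lay between 0.40 and 0.48.

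**Figure D5:**
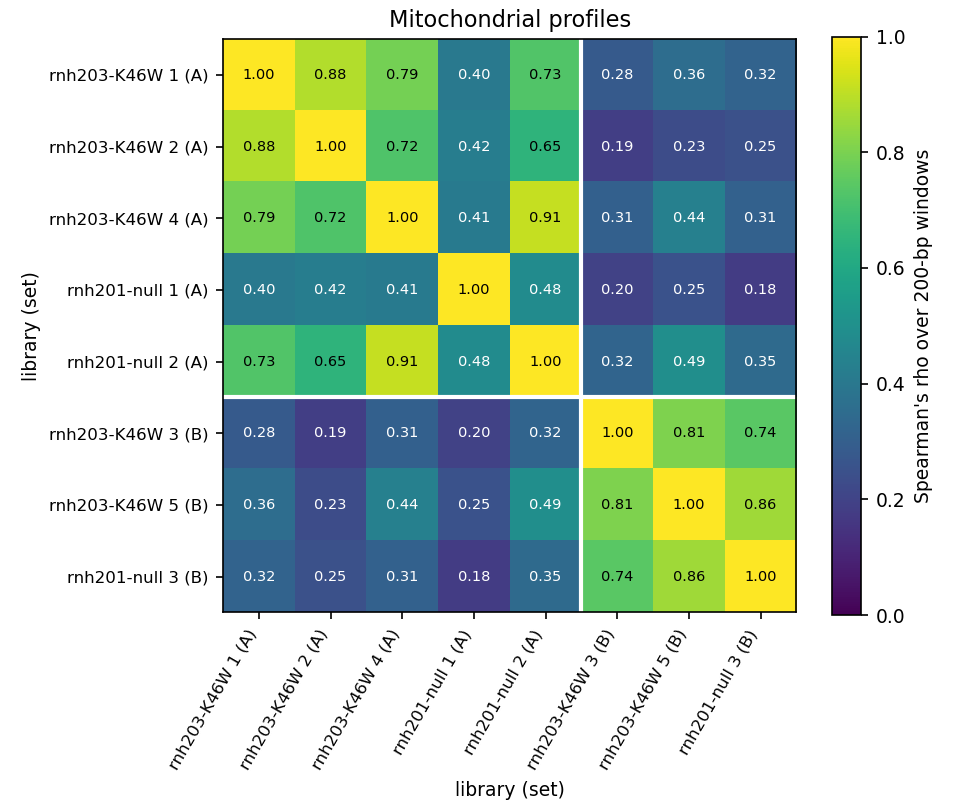
Spearman's rho between the mitochondrial profiles of the 8 libraries over 200-bp windows (colour and printed values); both axes list the libraries with their set, and white lines part set A from set B. Pairs within a set lie from 0.40 to 0.91, whatever the genotype, and pairs between sets from 0.18 to 0.49.

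Mitochondrial density was compared in 1-kb windows with strands apart. limma called 0 of 172 windows (0%), and 11 had an unadjusted p under 0.05. In simulated libraries, drawn as for the nuclear windows, it called 5.556% of windows changed 2-fold and 11.76% of those changed 4-fold. Without the shallow libraries it called 0% of either. The 0 calls in the data thus do not show that the mitochondrial profiles were alike. All rnh203-K46W libraries lay above all rnh201-null libraries in 6 windows (3.49%) and below them in 1 (0.581%). Without the shallow libraries these counts were 14 (8.19%) and 4 (2.34%) of 171, with none called. The 1 window below with all libraries, bases 40001 to 41000 on the plus strand, lies at COB, the cytochrome b gene, and overlaps its intron-encoded genes BI3 and BI4. Its level was 0.65 to 0.84 of the library mean in rnh203-K46W and 1.60 to 2.37 in rnh201-null, a log2 difference of -1.31 ± 0.51 (SE, limma adjusted p = 0.55). In the other direction, bases 13001 to 14000 on the minus strand, at COX1, the gene of cytochrome oxidase subunit 1, had 0.55 to 1.18 in rnh203-K46W and 0 to 0.39 in rnh201-null. The log2 difference was 2.18 ± 0.73 (SE, limma adjusted p = 0.55). Bases 81001 to 82000 on the plus strand, with no named gene, had 2.35 ± 0.76. Without rnh201-null replicate 3, the only set B library of that genotype, limma called 1 window, bases 10001 to 11000 on the minus strand, at 2.93 ± 0.68 (adjusted p = 0.041). Its level was 0.88 to 2.71 in rnh203-K46W, 0 and 0.26 in rnh201-null replicates 1 and 2, and 1.94 in replicate 3. Set and genotype together thus leave few libraries for each mitochondrial contrast.

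Mitochondrial strand shares overlapped, at 44.5 to 47.9% plus strand in rnh203-K46W and 45.1 to 48.5% in rnh201-null (exact permutation p = 0.89). Counting each detected position once instead gave a plus-strand share 2.87 percentage points higher in rnh203-K46W, with an unadjusted exact permutation p = 0.0357. Detected positions depend on depth. They numbered 53824 to 103746 in rnh203-K46W and 564, 19944 and 14293 in rnh201-null, so depth and genotype cannot be told apart in this count.

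Over all libraries, the mitochondrial position with the highest mean value in rnh203-K46W was 59528 on the minus strand, inside the gene of the 21S ribosomal RNA of the large mitochondrial ribosomal subunit. Its values were 71.9, 54.4, 15.6, 13.8 and 22.1 in rnh203-K46W and 0, 452 and 105 in rnh201-null. The 2 deep rnh201-null libraries were higher than all 5 rnh203-K46W libraries, and the shallow one had no read there. Setting the shallow libraries aside, it had the highest mean in rnh201-null, while in rnh203-K46W its mean of 30.9 was below the 34.2 of position 16640. Position 16703 on the minus strand, in the intron-bearing COX1 region, was 74.1, 12.8, 12.2, 12.5 and 10.2 in rnh203-K46W and 0, 211 and 80.5 in rnh201-null. Nearby, position 16640 on the minus strand was 78.2, 18.6, 17.3, 16.8 and 24.3 in rnh203-K46W and 0, 96.5 and 41.8 in rnh201-null. At both COX1 positions replicate 1 of rnh203-K46W stood above its group. Position 79676 on the minus strand, inside COX3, the gene of cytochrome oxidase subunit 3, was 50.5, 35.0, 12.03, 13.5 and 18.9 in rnh203-K46W. The rnh201-null values there were 0, 16.1 and 48.1 and overlapped. With the shallow library included, the highest mean of rnh201-null was at 61892 on the plus strand, also inside the 21S gene, where its values were 1186, 10.4 and 0. The first of these came from 10 reads of the shallow replicate 1, and rnh203-K46W libraries had 0.0061 to 13.4 there.

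A further position of the COX1 region, 16619 on the minus strand, differed between the sets within rnh203-K46W. Its values were 82.6, 21.7 and 19.9 in rnh203-K46W replicates 1, 2 and 4 of set A, and 0.21 and 0.42 in replicates 3 and 5 of set B. In rnh201-null it had 0, 59.1 and 28.7 in replicates 1 to 3, so that replicate 3, of set B, lay above the set A replicates 2 and 4 of rnh203-K46W. The 100 mitochondrial positions with most reads in rnh203-K46W replicate 4 were all detected in rnh203-K46W replicates 1, 2 and 3 and in rnh201-null replicate 2. In rnh203-K46W replicate 5, 93 were detected, and in rnh201-null replicate 3, of the other set, 52. The shallow rnh201-null replicate 1 had none. They held 3.84, 1.37, 0.552 and 0.804% of the reads of rnh203-K46W replicates 1, 2, 3 and 5. In rnh201-null replicates 2 and 3 they held 4.02 and 0.878%. Of all mitochondrial positions of rnh203-K46W replicate 4, replicates 1, 2, 3 and 5 had 60.4, 57.7, 65.2 and 39.1%. rnh201-null replicates 2 and 3 had 19.2 and 11.4% of them. The leading positions were thus found in libraries of both genotypes, and detection rises with depth.

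Most mitochondrial positions of the deep rnh201-null libraries were also found in a rnh203-K46W library with far more mitochondrial reads. Of the 19944 mitochondrial positions of rnh201-null replicate 2, 99.9% were also found in rnh203-K46W replicate 4, and of the 14293 of replicate 3, 99.5% in rnh203-K46W replicate 3. In reverse these were 19.2 and 14.3% of the positions of rnh203-K46W replicates 4 and 3, and the deep rnh201-null libraries shared 21.1 and 29.4% of each other's. Of the 1535413 nuclear positions of rnh201-null replicate 2, 11.7% were found in rnh203-K46W replicate 4, as were 14.8% in reverse. rnh201-null replicates 2 and 3 shared 174507 nuclear positions, 11.4 and 13.1% of each. These shares rise with the depth of both libraries and were not tested.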

How the data were processed

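Ribose-seq measured ribonucleotide positions in 8 libraries, 5 rnh203-K46W and 3 rnh201-null. The authors deposited 1 table for the series whose values are a normalised ratio per base and strand. Per the labels' design text, reads were aligned to sacCer2 with Ribose-Map, and the submitters' processing notes name cutadapt; the normalization is not given in the sources used here. From the values, the ratio equals a library constant times reads over the genotype's DNA depth, scaled to a fixed total per compartment (85779 for mitochondrial DNA). The 8216036 rows were merged by chromosome, end and strand into 6633594 positions. Reads were recovered from the whole-number steps of the values (tolerance 0.001); the recovery was tested on simulated data, where mitochondrial positions of many reads were its weakest point, so these reads are estimates.

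Single values were compared by two-sided exact permutation of library means (scipy 1.17.1), adjusted over 6 tests. Windows were fitted with limma 3.58.1 (R 4.3.3) on log2(level + 0.1), with a mean of at least 0.1, and Benjamini-Hochberg adjustment over all windows. Named windows are the 5 with the smallest p in each direction per test, since none passed, and named positions the 5 with the highest mean value. Alternatives were leaving out libraries, other measures, widths, filters, scalings and weights. The members, tests and lists were chosen with earlier results of these data known. The bases at the ribonucleotides were not analysed here, for want of a genome of this build. Zero-read limits (3 reads) cover counting error only, and each ± is an SD over libraries or a limma SE from the spread between libraries.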

Additional observations from a re-analysis of the deposited data

Results flagged for a closer look

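Of 33 groups of 4 or 5 values examined, 12 held a library farther from its group than Dixon's 95% limit, where chance gives about 1 in 20 groups. rnh201-null, with 3 libraries, was not examined. Of the 12, 6 are positions named for their highest mean, to which that rate does not apply. In chromosome density, replicate 1 was the distant library on chromosomes I (0.961), VII (0.942) and XII (0.996). The shallow replicate 2 was the distant one on chromosomes VIII (0.725), XIII (1.14) and XIV (0.848). Among nuclear positions, replicate 2 stood apart at 911883 of chromosome XIII (value 222763) and at 559452 of chromosome XVI (53396), where its reads were 172 and 26. Replicate 1 stood apart at 106233 of chromosome III (51785, from 374 reads). Among mitochondrial positions on the minus strand, replicate 1 stood apart at 16640 (78.2), 16619 (82.6) and 16703 (74.1).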

How the results depend on the processing

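Of the alternatives for the comparisons, 162 kept direction and side of the threshold, 10 reversed and 3 counted as moved. No comparison was past the threshold in its main form, so keeping its side was largely given in advance. No window was called except with library weights (4 nuclear windows), 1-kb windows (1) and without rnh201-null replicate 3 (1 mitochondrial window); leave-one-out counts ran from 0 to 0 in nuclear windows and strand ratios and from 0 to 1 in mitochondrial windows. The nuclear plus-strand difference turned to -0.059 percentage points among libraries numbered in the 300 series, which hold 1 rnh201-null library. The mitochondrial plus-strand difference, -0.109 points, ran from -0.79 to 0.87 when libraries were left out in turn and turned to 1.59 within set A, 0.105 with recovered reads and 2.87 with positions counted once. The telomere-proximal difference turned to 0.030 at 20 kb, and was -0.045 there without rnh203-K46W replicate 2 and -0.076 without both shallow libraries. The difference at the 100 leading positions of rnh203-K46W replicate 4 turned to -397 per 1000000 mitochondrial reads and to -839 as value over mitochondrial density. The window at 84001 of mitochondrial DNA turned to 0.044 with positions counted once. Alternatives for these leading positions, the set with the shallow libraries left out, the distinct positions without the 10 highest, and the telomere-proximal values with both distance and libraries changed were chosen after seeing the data. For all of these the cause was not tested. The 4 single values at the smallest exact p that 5 against 3 libraries allow stand at 0.0536 after adjustment, and leaving out any library puts the smallest exact p above 0.05. No paired analysis was possible because the labels give no replicate numbers shared between genotypes. The planned test of bases at ribonucleotides was not run.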
